A study of Homo sapiens with 4 samples.

Results

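The genes described here encode subunits of the mitochondrial respiratory chain and of ATP synthase, measured in human lung adenocarcinoma cells in which the level of PSAT1 was altered. Members were all genes whose symbol starts with NDUFA, NDUFB, NDUFC, NDUFS, NDUFV, UQCR, COX4, COX5, COX6, COX7, COX8 or ATP5 on probe sets annotated to exactly 1 gene. Of 87 symbols matched this way, 8 NDUFAF assembly factors, 2 pseudogenes and 3 noncoding RNAs were left out. This gave 74 genes of 19738 in all, with 33 in complex I, 6 in complex III, 17 in complex IV and 18 in ATP synthase, also called complex V. Each gene was read from its probe set with the highest mean log2 signal over the 4 arrays. The subunits NDUFS5, NDUFS8, NDUFC2, UQCRH and UQCRFS1 were not analysed here.

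Total RNA was hybridised to 4 one-colour Affymetrix arrays, 1 for each of 4 groups. The invasive line CL1-5 was selected from its less invasive parent CL1-0, an adenocarcinoma line of the human lung. CL1-0 cells carried either a control vector or a vector expressing PSAT1, and CL1-5 cells carried either a non-silencing hairpin or one directed at PSAT1. Cells of every group had been stably transduced and selected in puromycin for 2 weeks, as the labels state. No group had a second array, so no test, error or p-value could be given, and "2-fold" marks the size of difference that is counted as a change. The construct cannot be told apart from whatever else differed between a pair of cultures.

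The respiratory chain of the inner mitochondrial membrane passes electrons from NADH and succinate to oxygen. Complex I (NADH dehydrogenase), complex III (the cytochrome bc1 complex) and complex IV (cytochrome c oxidase) pump protons as they do so, and ATP synthase uses the proton gradient to make ATP. Most subunits are encoded in the nucleus and are present in a fixed ratio in the finished complex. Many of their promoters are known to be bound by NRF1, by the ETS factor GABP and by YY1, and a few complex IV subunits exist as a broadly used form and a form restricted to certain tissues or to low oxygen. PSAT1, an aminotransferase of serine synthesis, releases alpha-ketoglutarate, an intermediate of the TCA cycle that feeds the chain.

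Promoters of 5 subunits are shown, taken mainly from the ends of the line comparison. NDUFB7 and COX5B had the lowest ratios of CL1-5 to CL1-0, and NDUFB3 the highest. COX4I1 was among the highest. NDUFA9 had rank 12 from the lowest as deposited (log2 ratio -1.04), so it lay toward the low end and not in the middle. Each window runs from 250 bases before to 50 after the gene's start, from RefSeq on GRCh38.p14, 5′ to 3′ on the gene's strand. Capitals mark letters of NRF1 (GCGCA, any base, then GCGC), ETS (CCGGAAG), YY1 (AAGATGGCG) or the TATA box (TATAAA) on either strand.
NDUFB7 promoter, chr19:14572017-14572316, minus strand: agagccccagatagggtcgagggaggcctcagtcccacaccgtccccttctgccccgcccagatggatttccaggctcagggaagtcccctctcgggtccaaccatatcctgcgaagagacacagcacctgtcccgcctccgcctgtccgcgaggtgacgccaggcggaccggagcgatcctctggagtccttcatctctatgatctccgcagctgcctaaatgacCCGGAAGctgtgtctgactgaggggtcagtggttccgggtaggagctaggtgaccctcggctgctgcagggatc
COX5B promoter, chr2:97645812-97646111, plus strand: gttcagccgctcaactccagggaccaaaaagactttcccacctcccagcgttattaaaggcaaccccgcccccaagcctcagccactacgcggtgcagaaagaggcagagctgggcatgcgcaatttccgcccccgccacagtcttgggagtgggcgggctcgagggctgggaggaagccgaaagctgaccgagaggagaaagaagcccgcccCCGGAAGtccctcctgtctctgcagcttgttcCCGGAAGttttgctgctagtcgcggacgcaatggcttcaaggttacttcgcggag
NDUFB3 promoter, chr2:201071751-201072050, plus strand: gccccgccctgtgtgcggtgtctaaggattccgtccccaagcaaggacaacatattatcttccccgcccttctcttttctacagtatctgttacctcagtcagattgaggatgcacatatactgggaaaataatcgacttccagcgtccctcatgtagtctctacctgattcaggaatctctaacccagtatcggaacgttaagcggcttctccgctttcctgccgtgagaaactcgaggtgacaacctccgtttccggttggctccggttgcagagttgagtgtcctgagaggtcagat
COX4I1 promoter, chr16:85799445-85799744, plus strand: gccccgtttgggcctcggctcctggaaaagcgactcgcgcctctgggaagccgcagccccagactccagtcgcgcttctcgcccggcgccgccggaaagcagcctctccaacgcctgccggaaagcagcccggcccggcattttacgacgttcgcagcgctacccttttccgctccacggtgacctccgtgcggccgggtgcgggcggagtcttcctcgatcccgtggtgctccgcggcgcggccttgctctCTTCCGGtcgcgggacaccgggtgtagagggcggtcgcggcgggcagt
NDUFA9 promoter, chr12:4648864-4649163, plus strand: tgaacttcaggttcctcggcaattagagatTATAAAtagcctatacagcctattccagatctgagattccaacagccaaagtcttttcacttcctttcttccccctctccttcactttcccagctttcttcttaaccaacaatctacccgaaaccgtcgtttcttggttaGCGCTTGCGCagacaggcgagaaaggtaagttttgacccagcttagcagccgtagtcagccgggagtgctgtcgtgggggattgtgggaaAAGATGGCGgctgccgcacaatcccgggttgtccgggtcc
NDUFB7 carries 1 ETS match, COX5B carries 2, COX4I1 carries 1 and NDUFB3 has no match to these letters. NDUFA9 has 1 match each to the NRF1, YY1 and TATA letters. Over the 64 members with a promoter in the table, 14 (21.9%) held the NRF1 letters, against 8.57% of 15842 protein-coding promoters. For ETS the counts were 17 members (26.6%) against 14.2%, for YY1 7 members (10.9%) against 2.74%, and for the TATA letters 7 members (10.9%) against 9.63%. At least 1 of the NRF1, ETS and YY1 motifs was found in 33 members (51.6%) and in 22.8% of all promoters. The ETS letters end as the YY1 letters start, so the same bases can count for both. The median GC content was 61.0% in members and 62.7% in all promoters. These matches describe letters in the window, not binding.

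The subunits were among the brightest features of the arrays. Of the 74, 68 were above the floor on all 4 arrays, 2 on some (COX4I2 and ATP5MF) and 4 on none. On at least 1 array 70 members were above it, as were 14018 of all 19738 genes. The floor, a signal of 49.0, is the pooled median of all probe sets that are not controls and stands in for detection calls. A signal over 1000 on all 4 arrays was seen for 65 members (87.8%) and for 11.5% of all genes. ATP5MF, a small membrane subunit of ATP synthase, was represented by a dim probe set (63.4, 57.8, 44.7 and 40.7), since its other probe set carries a second symbol. A series of 4 signals always gives the control and then the PSAT1 array of CL1-0, followed by the control and then the hairpin array of CL1-5.

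PSAT1 itself read 4214, 5494, 1760.0 and 143, so the hairpin array had a 12.3-fold lower signal while the PSAT1 array of CL1-0 was 1.30-fold above its control. The trimmed mean signal was 329.5 and 327.8 on the CL1-0 arrays and 211.8 and 210.7 on the CL1-5 arrays, and ACTB, read with 3′ and 5′ probe sets as a check of RNA, had 3′ to 5′ ratios of 1.18 and 1.22 in CL1-0 and 1.34 and 1.38 in CL1-5. Both measures separate the lines. The same ratio for GAPDH differed less, with 1.073 and 1.082 in CL1-0 and 1.093 and 1.105 in CL1-5. Within CL1-0, 1259 of 54613 probe sets held the same value to every digit on both arrays, within CL1-5 1745, and between the control arrays 0. None of these was the probe set that represents a subunit. The labels call the cells type II alveolar. Of the 8 named alveolar type II markers, 6 were above the floor on at least 1 array, and the same 6 were above it on all 4. Of all 19738 genes, 14018 were above it on at least 1 array. SFTPC read between 131 and 151 and NAPSA between 62.3 and 67.9, so the count alone does not identify the cell type. SFTPD and SLC34A2 were below the floor everywhere. The epithelial markers EPCAM, CDH1 and KRT19 were also below it on all 4 arrays, and KRT8 (77.8, 60.4, 1271 and 1675) and KRT18 (757, 635, 5308 and 5657) were above it on all, brighter in CL1-5. Of the 6 fibroblast markers 1 to 3 were above the floor on an array, and of the 5 named immune and endothelial markers 1 or 2, with PTPRC, CD3E and CDH5 below it on all.

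In CL1-0 with the PSAT1 vector, the measured subunit genes read nearly as they did with the control vector. None of the 70 measured subunits was 2-fold higher and none 2-fold lower, where 2.4% of all 13165 measured genes were higher and 1.0% lower. Ratios were positive for 35 members, where 47.5% of genes were, and negative for 35, where 51.9% were, with a median log2 ratio of 0.00, against -0.02 over all genes. At 1.5-fold the counts were also 0, where 8.96% of genes were higher and 4.05% lower. They stayed at 0 for 2-fold after quantile normalization (1.67% of genes higher, 1.04% lower) and after centring (1.92% and 1.15%). The members lay close together. Of the 70, 66 (94.3%) were within 1.2-fold of the control, against 56.6% of all measured genes, and their spread, estimated from the median absolute deviation, was 0.14 in log2 units against 0.33. Bright genes also varied less among all genes, with a spread of 0.24 for the 2273 genes over 1000 on all arrays.

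Complex I held the widest range in this pair, with a median log2 ratio of 0.01 and ratios from -0.39 to 0.22. NDUFS1, the largest subunit and carrier of iron-sulfur clusters in the arm that receives electrons from NADH, read 1983 with vector and 1509 with PSAT1 (log2 ratio -0.39). Of its other 3 measured probe sets, the brightest gave -0.25 and the dimmer ones 0.06 and 0.04. NDUFA10, an accessory subunit of the membrane arm, read 3855 and 2954 (-0.38). NDUFS4, an accessory subunit of the peripheral arm, read 1636 and 1357 (-0.27). These were the 3 lowest ratios among all members, and with ATP5MC2 they made up the 4 outside 1.2-fold. NDUFB2 and NDUFA7 followed, both with -0.21. At the other end of complex I, NDUFB11, a membrane arm subunit encoded on the X chromosome, had 0.22, and NDUFA2 had 0.20. The 5 measured core subunits, which are shared with the bacterial enzyme, had a median of -0.08 and the 28 accessory subunits 0.01.

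The other complexes had a smaller spread than complex I in CL1-0, with 0.10 for III, 0.11 for IV and 0.12 for V against 0.19. Complex III had a median of 0.03 and ratios from -0.15 (UQCRQ, next to cytochrome b) to 0.12 (UQCR10). Complex IV had a median of -0.0026 and ratios from -0.08 to 0.19. COX4I1, a nuclear subunit that takes part in control of the oxidase by ATP, gave the upper value with 10471 and 11949. ATP synthase had a median of -0.05. ATP5MC2, which encodes the same mature c-ring protein as ATP5MC1 and ATP5MC3, had the largest positive ratio of all members, 6079 with vector and 7894 with PSAT1 (0.38, 1.30-fold). Its partners ATP5MC1 and ATP5MC3 had 0.03 and -0.14, so the 3 genes for that protein did not move together. The peripheral stalk subunit ATP5PO, which helps hold the catalytic head still, had 0.21, and ATP5IF1, the inhibitor that blocks ATP hydrolysis, had 0.03.

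**Figure D1:**
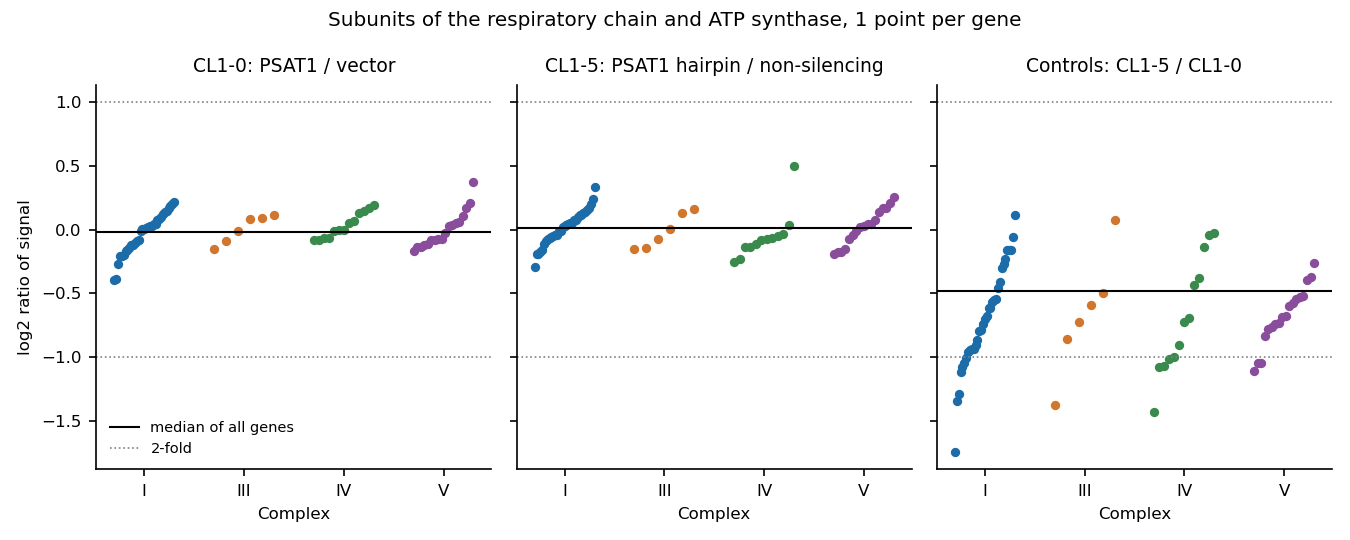
Log2 ratios of signal for each measured subunit in the 3 comparisons, by complex, with the median of all genes as a black line and 2-fold as dotted lines. In both PSAT1 comparisons all points lie inside the 2-fold lines, while between the lines the points of all 4 complexes spread mostly below 0.

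In CL1-5 with the PSAT1 hairpin, the subunits also stayed near their control. None of the 68 measured members was 2-fold higher (0.389% of 12850 genes were) and none 2-fold lower (0.405%). The median log2 ratio was -0.01 against 0.02 over all genes, with 33 positive ratios (52.8% of genes) and 35 negative (46.2%). No member reached 1.5-fold, where 1.67% of genes were higher and 2.12% lower. The 2-fold counts stayed at 0 after quantile normalization (0.516% higher, 0.501% lower) and after centring (0.41% and 0.366%). Of the 68, 65 (95.6%) were within 1.2-fold, against 77.6% of all genes. The spread of the members was 0.16 in log2 units, that of all genes 0.19 and that of genes over 1000 on all arrays 0.15.

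The largest ratio of this pair belonged to COX6B2, a form of the intermembrane subunit COX6B known mainly from testis. It read 65.2 with the non-silencing hairpin and 92.3 with the PSAT1 hairpin (log2 ratio 0.50, 1.41-fold), at a signal just above the floor. NDUFV3, an accessory subunit of the NADH-binding module, read 1323 and 1668 (0.33), but its second probe set had -0.07. ATP5IF1 followed with 1036 and 1239 (0.26), and its other 2 probe sets gave 0.28 and 0.36. NDUFA7 had 0.24 and ATP5MC1 0.21. On the negative side were NDUFB8, a membrane arm subunit whose protein is often used to gauge assembled complex I (3863 and 3160.1, -0.29), COX6C (-0.25), COX7C (-0.23), NDUFB4, NDUFA13 and ATP5PO (each -0.19). A second probe set of NDUFB8 had -0.23 and a dim one 0.34. NDUFB8, NDUFV3 and COX6B2 were the 3 members outside 1.2-fold.

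By complex, the medians in CL1-5 were 0.03 for complex I, -0.03 for complex III, -0.08 for complex IV and 0.03 for ATP synthase. Complex IV was one-sided, with 10 of 12 ratios negative where the share over all genes was the 46.2% given above. Its exceptions were COX6B2 and COX5A, and its ratios otherwise ranged from -0.25 to -0.04, all within 1.2-fold. Quantile normalization left 10 of 13 negative, where 44.5% of genes were, and median centring 10 of 14, where 38.9% were.

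Set side by side, the PSAT1 pairs share no array. Of the 68 members measured in both, 36 (52.9%) had opposite signs, against 56.3% of all genes, with 19 positive in CL1-0 and negative in CL1-5 and 17 the other way. ATP5MC2 had 0.38 and -0.18, ATP5PO 0.21 and -0.19, and NDUFA10 -0.38 and 0.16. NDUFS1 had -0.39 and -0.05. No member passed 1.5-fold in either pair.

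Between the control arrays of the lines, most subunits had a lower signal in CL1-5, but the size of that difference depended on how the arrays were scaled. Within 1.2-fold lay 11 of 70 members (15.7%), against 23.5% of genes. As deposited, 16 of 70 measured members were 2-fold lower in CL1-5, where 24.7% of 13704 genes were, and 0 were higher, where 5.14% were. At 1.5-fold 43 were lower (44.4% of genes) and 0 higher (8.39%), and 68 ratios were below 0 (76.8%) and 2 above (23.2%). The members' median log2 ratio was -0.70 and that of all genes -0.48, so the whole CL1-5 array was dimmer. With all 4 arrays quantile normalized the members' median was -0.13 against 0.00 for all genes, and with each array centred on its median it was -0.08 against 0.09. NDUFB7 was then the 1 member still 2-fold lower, where 8.87% of genes were lower under quantile normalization and 8.55% under centring, and 0 members were higher, where 9.4% and 10.1% of genes were. Ratios were then positive for 21 of 70 members (50.1% of genes) and 32 of 71 (56.4%). The members' median thus lay 0.22, 0.13 and 0.17 below that of all genes under the 3 scalings. Among genes over 1000 on all arrays, the as-deposited medians were -0.70 for 65 members and -0.59 for all 2273, and 20.5% of the latter were 2-fold lower against 14 of the members. The part that scaling, RNA integrity or the difference in array brightness plays in the member values was not tested.

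**Figure D2:**
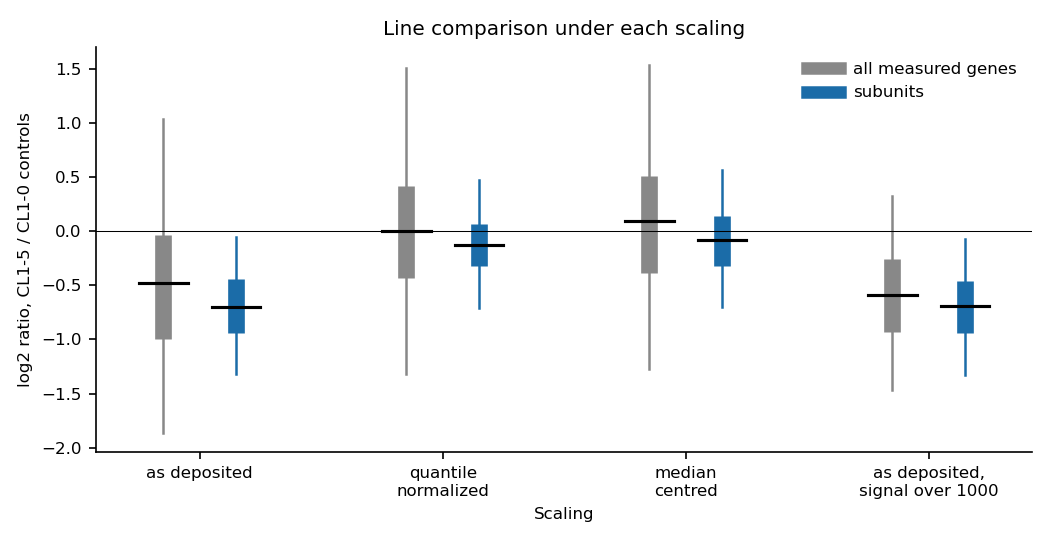
Log2 ratio of the CL1-5 to the CL1-0 control array for all measured genes (grey) and for the subunits (blue), with medians as black lines, thick bars for the middle 50% and thin lines for the 5th to 95th percentiles. The subunits' median is -0.70 as deposited and -0.13 after quantile normalization, and their range is narrower than that of all genes under each scaling.

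The arrays of the altered cells were set beside the controls. As deposited, both CL1-5 arrays were below both CL1-0 arrays for 65 of 70 members, where this held for 62.9% of 14018 genes, and both were above for NDUFB3, where 15.9% were. After quantile normalization 40 of 70 members were lower (34.4% of genes), and 16 higher (38.7%), and after centring 26 of 71 were lower (29.0%) and 25 higher (45.8%). The sign for members near the middle thus changed with the scaling, and the ends of the order are described relative to the median of all genes.

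Relative to that median, 47 of 70 members lay below it under all 3 scalings, 17 above it under all 3 and 6 changed side. Centring multiplies all signals of an array by the same factor. For genes above the floor it thus nearly repeats the deposited values, and only quantile normalization could change their order. NDUFB7, an accessory subunit on the intermembrane side of complex I, was the lowest. It read 4606 and 4160.1 in CL1-0 and 1379 and 1422 in CL1-5, a 3.34-fold fall between controls as deposited, with log2 ratios of -1.74 as deposited, -1.03 quantile normalized and -1.12 centred. The CL1-0 and CL1-5 arrays do not overlap, and a second, dim NDUFB7 probe set gave -0.91 as deposited.

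COX5B, the zinc-binding subunit of complex IV on its matrix side, read 9742, 10673, 3611 and 3330.5 (2.70-fold, log2 ratio -1.43 as deposited and -0.88 quantile normalized). All 4 of its probe sets lay between -1.80 and -1.43 as deposited. UQCRC2, a core protein of complex III, read 7599.9, 7131, 2935 and 3287 (-1.37 and -0.75 in the same order), and its second probe set gave -1.78 as deposited. NDUFB5, another membrane arm subunit of complex I, read 4265, 4286, 1680.5 and 1707 (-1.34 and -0.66). These genes and COX4I2 were at least 1.5-fold below the median of all genes under all 3 scalings, and NDUFA5 (-1.29 and -0.58), a peripheral arm subunit, came just short under quantile normalization.

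At the other end, NDUFB3, a small membrane arm subunit of complex I, read 2944 and 2559 in CL1-0 and 3186 and 3165 in CL1-5. Its log2 ratio was 0.11 as deposited, 0.78 quantile normalized and 0.73 centred, and it was the 1 member at least 1.5-fold above the median of all genes under all 3. UQCRB, the ubiquinone-binding protein of complex III, read 6941, 6893, 7328 and 6592 (0.08, 0.60 and 0.69). Of its other 2 measured probe sets, the brighter gave -0.17 as deposited and the dimmer 0.21. COX8A (-0.04, 0.34 and 0.57), NDUFA2 (-0.06, 0.52 and 0.55) and COX4I1 (-0.14, 0.30 and 0.48) came next as deposited, apart from COX6B2 near the floor. The core subunit NDUFS3 had -0.16, 0.51 and 0.46. Subunits of the same complex thus stood apart within an array pair. NDUFB7 and NDUFB3 differed by more than 1 log2 unit as deposited and quantile normalized, as did UQCRC2 and UQCRB. Centring cannot change such differences between genes above the floor.

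The complexes did not separate from each other in the line comparison. Their medians as deposited were -0.70 for complex I, -0.66 for III, -0.72 for IV and -0.68 for V, and after quantile normalization -0.10, -0.09, -0.20 and -0.15. Complex V was the tightest, with a spread of 0.21 against 0.38 in complex I, 0.27 in complex III and 0.50 in complex IV. Its catalytic F1 subunits ATP5F1A to ATP5F1E, which form the catalytic head and the shaft that turns within it, lay between -0.78 and -0.55 as deposited. ATP5ME (8086, 7495, 3758 and 3841), ATP5PF (10225, 10626, 4946 and 4706) and ATP5IF1 (2135, 2173, 1036 and 1239) were 2-fold lower as deposited. Quantile normalized, they had -0.52, -0.51 and -0.29. Other probe sets of ATP5IF1 gave -0.87 and -0.35 as deposited, short of 2-fold. The remaining members past 2-fold as deposited were NDUFA7, NDUFA9, NDUFB2, NDUFV3, COX5A, COX7A2 and COX7A2L, with quantile normalized ratios between -0.55 and -0.33. COX5A, which like COX5B lies in the matrix part of complex IV, read 11267, 12489, 5632 and 5779 and NDUFA9, next to the quinone site of complex I, read 3380.5, 3840.4, 1640.4 and 1696. NDUFB2 read 6362, 5505, 3169 and 2976 and NDUFA7 read 1399, 1213, 665 and 783. As deposited, both CL1-5 arrays lay below both CL1-0 arrays in each of these 4, which for NDUFA7 did not hold under quantile normalization or centring. NDUFAB1, an acyl carrier protein that also serves lipoic acid synthesis, read 11113, 10233, 7565 and 7334. Between probe sets of the same gene, the pooled SD of the log2 ratio was 0.36 over 32 members here, against 0.18 within CL1-0 and 0.13 within CL1-5.

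**Figure D3:**
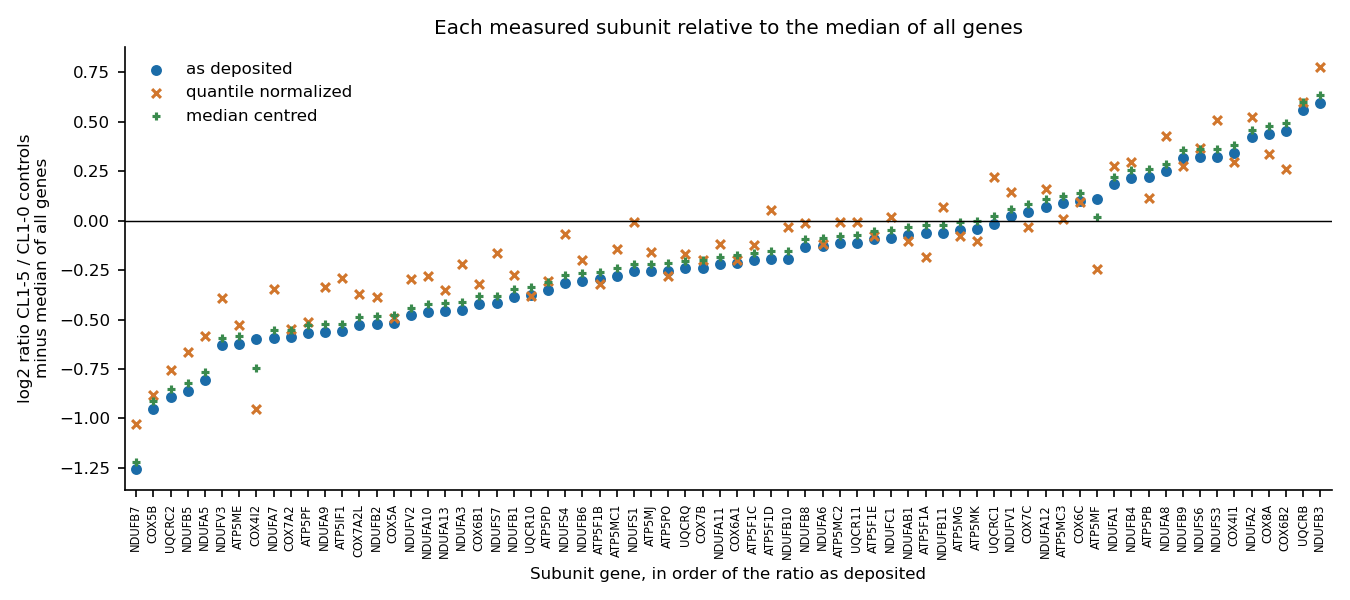
Log2 ratio of the CL1-5 to the CL1-0 control array minus the median of all measured genes, for 70 subunits in order of the value as deposited, under 3 scalings. NDUFB7 is lowest and NDUFB3 highest under each scaling, while the middle of the order lies near 0. Centring shifts the deposited ratios of genes above the floor by a constant, so it is not a separate check of their order.

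Forms of complex IV subunits that are restricted to certain tissues were near or below the floor. COX6A2 and COX7A1, the heart and muscle forms, were below it on all 4 arrays, as were COX7B2 and COX8C, which are known from testis. Their broadly used partners were all measured, with COX6A1 at 10285, 10783, 6349 and 5769 and COX7A2 at 9926, 9458, 4722 and 4306. COX4I2, the form of COX4 known from lung and from low oxygen, read 103 and 98.6 in CL1-0 and 43.1 and 46.6 in CL1-5. Both CL1-5 values were under the floor, so as deposited the control of CL1-5 was at least 2.11-fold lower. The log2 ratio was -0.95 quantile normalized and -0.65 centred, short of 2-fold. Its partner COX4I1 read 9507 and 8995 there. COX7A2L, which joins complexes III and IV into supercomplexes, read 5577, 5766, 2768 and 2628.

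NDUFA4 and NDUFA4L2 are subunits of complex IV that the annotation now names COXFA4 and COXFA4L2, so they fell outside the prefixes. COXFA4 read 9465, 9837, 4716 and 4178 (log2 ratio between controls -1.01 as deposited and -0.48 quantile normalized). COXFA4L2, induced by low oxygen, read 63.4, 68.4, 43.4 and 41.2. Another gene of this family, COXFA4L3 (C15orf48), encodes a paralogue known to replace COXFA4 in the oxidase of inflamed cells, and it was named after its values were seen. It read 60.5 and 48.2 in CL1-0 and 1065 and 813 in CL1-5, 17.6-fold higher between the controls, with log2 ratios of 4.14 as deposited, 4.65 quantile normalized and 4.75 centred. Within CL1-5 it was 1.31-fold lower with the PSAT1 hairpin.

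**Figure D4:**
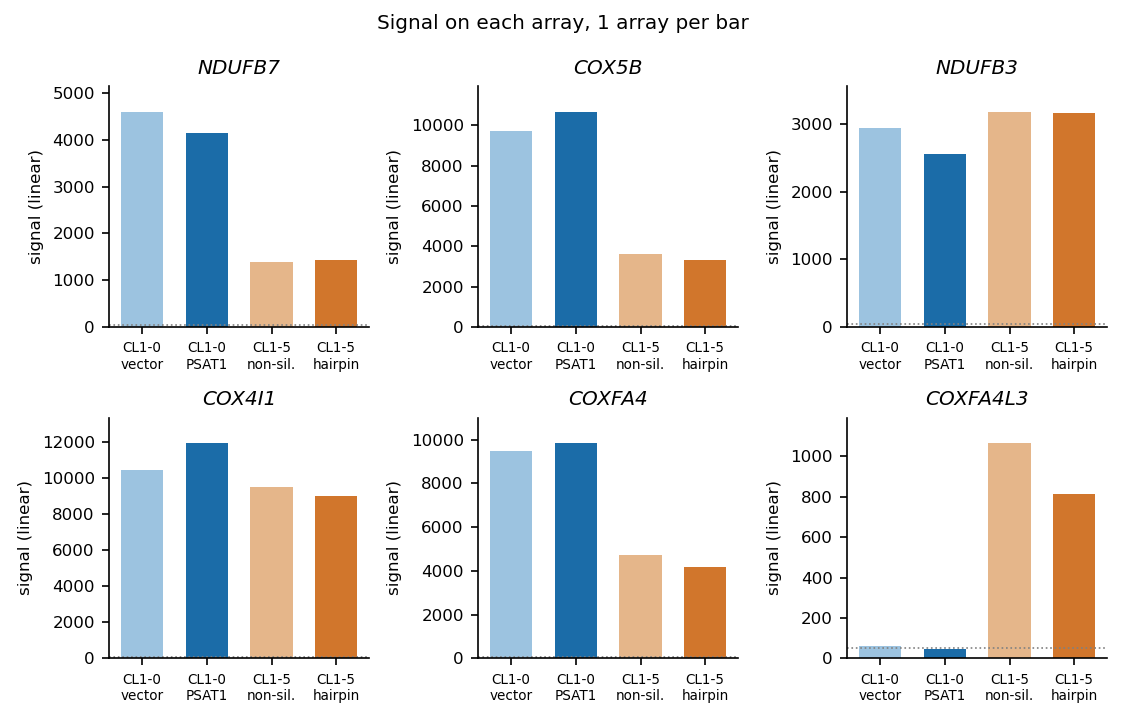
Signal of 6 genes on each array, linear scale from 0, with the floor of 49.0 as a dotted line and 1 array per bar. NDUFB7, COX5B and COXFA4 are lower on both CL1-5 arrays, NDUFB3 and COX4I1 differ little as deposited, and COXFA4L3 is near the floor in CL1-0 and at 1065 and 813 in CL1-5.

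Other genes of the pathway were read from lists of related genes. Complex II, which feeds electrons from succinate, was represented by 3 of its 4 subunits. SDHA read 3029, 3203, 2029 and 1778, SDHC read 2882, 2983, 2247 and 1961, and SDHD read 3781, 3356, 2024 and 2224. None was 2-fold different in any comparison. Neither were cytochrome c itself (CYCS, 11267, 10689, 6488 and 7289) or cytochrome c1 (CYC1, 7989, 8166, 4429 and 4329). The 13 subunits encoded in mitochondrial DNA were not analysed here.

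Genes that help to make the chain were read in the same way. Mitochondrial ribosomal proteins, which translate the mitochondrially encoded subunits, had negative ratios for 67 of 75 genes with PSAT1, where 51.9% of all genes did, and a median of -0.22. None was 2-fold changed. The lowest ratios were those of MRPL50 (2156 and 1320.0, -0.71) and MRPL1 (-0.64). The count was 66 under quantile normalization (54.6% of genes) and 71 under centring (58.8%), and 55 of 62 among genes over 1000 on all arrays, where 60.2% of genes were negative. With the hairpin in CL1-5 the same 75 genes had 54 positive ratios, where 52.8% of all genes did, and a median of 0.08 (54 and 60 positive under quantile normalization and centring, where 55.4% and 61.1% of genes were). The difference between this list and the subunits was not tested.

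Assembly factors, which build the complexes but do not stay in them, are set beside the shares over all genes, 51.9% negative in CL1-0 and 52.8% positive in CL1-5. Those of complex I had 10 of 16 (62.5%) negative ratios in CL1-0 (median -0.11) and 11 of 16 positive in CL1-5 (0.15). Those of complexes III, IV and V had 18 of 28 (64.3%) negative (-0.20) and 20 of 28 positive (0.13). NDUFAF4, an early factor for complex I, read 3146 and 1868 in CL1-0, and POLRMT, the mitochondrial RNA polymerase, 1029 and 613. Regulators of mitochondrial biogenesis and transcription had 16 of 18 negative ratios in CL1-0 (median -0.30), again against 51.9% of genes. In CL1-5 10 of 18 were negative (-0.01) against 46.2% of genes, and 6 of 18 under quantile normalization (44.5%) and under centring (38.9%). TFAM, which packages and transcribes mitochondrial DNA, read 3756, 3362, 1643 and 1511, and NRF1 read 255, 217, 127 and 118. The coactivator PPARGC1A was below the floor on all 4 arrays.

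In the line comparison these regulators had a median of -1.21 as deposited, against -0.48 over all genes, with 14 of 18 members 2-fold lower where 24.7% of genes were. Quantile normalized, the median was -0.53 against 0.00, with 4 of 18 lower where 8.87% of genes were. LRPPRC, which stabilises mitochondrial messenger RNA, read 8772, 8167, 2074 and 2365 (4.23-fold lower between controls as deposited, log2 ratio -1.48 quantile normalized). POLG2, the accessory subunit of the mitochondrial DNA polymerase, read 622, 658, 151 and 171. Medians for the other lists were -0.86 as deposited and -0.18 quantile normalized for mitochondrial ribosomal proteins, and -0.97 and -0.32 for 12 TCA cycle enzymes. The assembly factors of complex I had -0.80 and -0.17, those of the other complexes -0.76 and -0.04, and 15 carriers and pores -0.67 and -0.12. The same medians of all genes, -0.48 and 0.00, apply. The TCA cycle and carrier medians were -0.06 and 0.01 with PSAT1 and -0.02 and 0.05 with the hairpin. The TCA cycle enzyme IDH2 was the 1 gene of its list past 2-fold with PSAT1 in CL1-0 (636 and 1385, 2.18-fold higher). It stayed past 2-fold quantile normalized (log2 ratio 1.11) and centred (1.05). As deposited, 10 of the 12 TCA cycle ratios in that pair were negative, where 51.9% of all genes were. Quantile normalized, IDH3B (0.02), MDH2 (0.02) and SUCLG2 (0.0075) turned positive, so this count depended on the scaling. The median of the list was then -0.02, against -0.04 over all genes. A list of 7 measured hypoxia-induced genes had a median of 0.44 with PSAT1 in CL1-0 and -0.29 with the hairpin in CL1-5. Between the controls it was 0.37 as deposited, 1.06 quantile normalized and 0.99 centred. BNIP3L, a mitophagy receptor, was the 1 gene of this list past 2-fold with PSAT1 in CL1-0 (1498 and 3096, 2.07-fold). Of all genes 2.4% were 2-fold higher. Its log2 ratio was 1.05 as deposited and 1.11 quantile normalized, but 0.98 centred, short of 2-fold. LDHA, which reduces pyruvate to lactate, had -0.11 in that pair as deposited. The mitochondrial protease LONP1 had -0.09, with -0.88 between the controls as deposited.

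**Figure D5:**
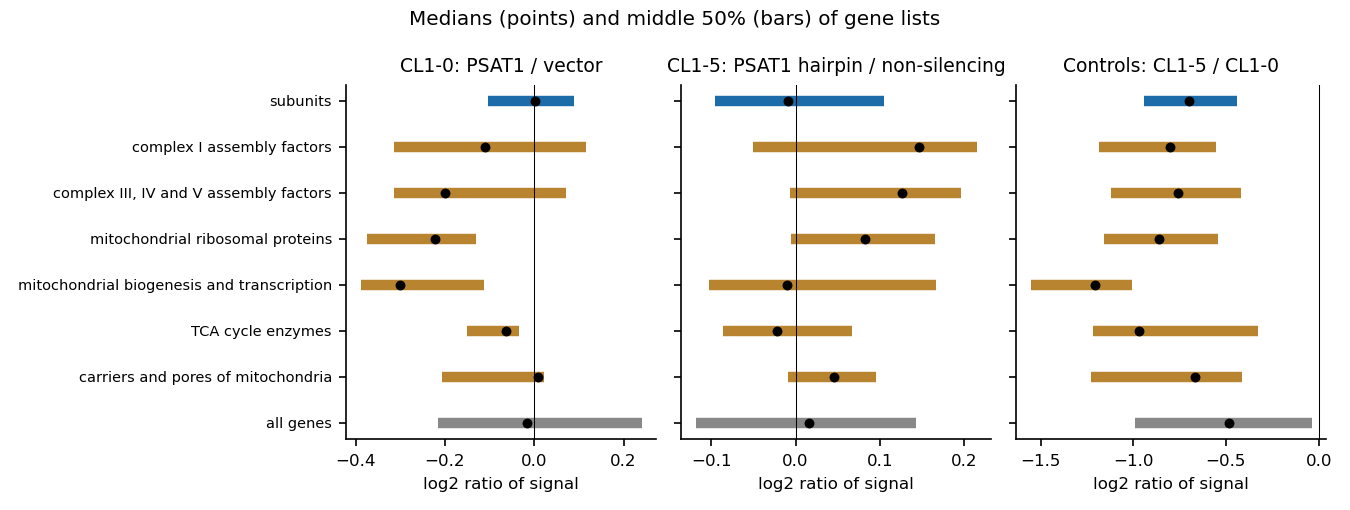
Median (point) and middle 50% (bar) of log2 ratios for the subunits, 6 related lists and all measured genes in the 3 comparisons, as deposited, each panel with its own horizontal scale. The subunits are centred near 0 in both PSAT1 comparisons, and the median of mitochondrial ribosomal proteins is -0.22 in CL1-0 and 0.08 in CL1-5.

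The 3 noncoding RNAs that share a prefix with members are no subunits and were kept apart. NDUFB2-AS1 read 83.3, 83.3, 86.1 and 79.9, and NDUFV1-DT read 131, 116, 173 and 157. NDUFV2-AS1 was above the floor on 1 array.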

How the data were processed

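Expression was measured on 4 one-colour arrays, 1 per group, with cRNA made from 6 ug of total RNA per the labels. The authors deposited 1 linear intensity per probe set and array, made with MAS5 per the submitters' processing notes. Its version, scaling target and detection calls are not given in the sources used here. The table held 54675 probe sets, 62 of them controls. The platform annotation gave 1 symbol to 41097 probe sets (41043 found in the RefSeq gene table, GRCh38.p14), several to 1801 and none to 11777, and 63 of the Y chromosome or X inactivation were left out.

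Signals under the floor of 49.0 (the 50th percentile) were set to it, then log2 transformed. A gene was measured in a pair if at least 1 array exceeded the floor, and a fold against the floor is a lower bound. With 1 array per group no test was made, and the number of arrays limits the precision. Members are set beside the same figures over all genes.

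The members, lists and alternatives were chosen with earlier results of these data known. Named genes were members past 2-fold, the 5 highest and 5 lowest ratios per comparison, isoform partners, and a few genes of each related list. NDUFS3, UQCRQ, UQCR10, ATP5MC3 and COXFA4L3 were added after their values were seen. Alternatives were quantile normalization, median centring, floors at the 25th and 65th percentile, other probe set rules, genes above the floor on all arrays, a 1.5-fold rule, the other array of each line, and, chosen after seeing the data, genes over 1000 on all arrays. The code was tested on simulated data (Python 3.11.15, pandas 2.3.3, numpy 2.4.6).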

Additional observations from a re-analysis of the deposited data

How the results depend on the processing

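In both PSAT1 pairs the count of members past 2-fold stayed at 0 under all alternatives run, also at 1.5-fold, and the median moved by at most 0.1. The share of positive ratios in the CL1-0 pair went from 35 of 70 to 30.0% under median centring, where that of all genes was 41.2%. Quantile normalization moved that pair the other way, with a members' median of 0.06 against -0.04 for all genes. Under centring both medians were -0.07. In the line comparison, 16 members past 2-fold as deposited became 1 (NDUFB7) under quantile normalization and 1 under centring, and 43 at 1.5-fold. The median of -0.70 became -0.13 and -0.081, and the share of positive ratios of 2.86% became 30.0% and 45.1%. The other alternatives gave 12 to 16 members past 2-fold, all lower in CL1-5. NDUFB7 was not among them without multi-transcript probe sets, since its bright probe set is one of these. With the other array of each line the median was -0.68, against -0.48 for all genes. No paired analysis was possible because each group had 1 array. Values near the floor (COX4I2, COX6B2 and ATP5MF) are limited by signal over background.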
